A study of Mus musculus with 2 samples.

Results

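The aminoacyl-tRNA synthetases are 36 genes whose products load amino acids onto their tRNAs, and they were followed here in mouse erythroid cells after siRNA against Lmo2. A gene was taken as a member where the array file's gene name, or the current symbol of its RefSeq identifier, was 1 of the 36 listed names. The rule found all 36, with 72 probes, among 14108 genes measured on the arrays. Of the 36, 20 encode cytosolic enzymes and 16 encode mitochondrial enzymes, whose symbols end in 2. All 36 read well above background in both channels on both arrays, and none was saturated.

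The cells were G1E-ER-GATA-1, a GATA-1-null mouse line that carries a fusion of GATA-1 with the estrogen receptor, so that estradiol switches GATA-1 on. One arm received LMO2 siRNA and the other control siRNA, and both arms were then kept in β-estradiol for 24 h to induce maturation. Lmo2 encodes a bridging protein of the GATA-1 complex, and the study asked what lowering it does to expression during maturation. Both arms are the same line and both lack the endogenous GATA-1, and siRNA lowers a transcript without removing it. The 2 Agilent arrays were two-colour, each carrying total RNA of both arms, with LMO2 siRNA in Cy3 and control siRNA in Cy5 on both. A dye effect and the siRNA effect therefore cannot be told apart. The labels call the arrays replicates 1 and 2 but do not state separate cultures, so p-values measure the spread between these samples, which may be technical.

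Synthetases join each amino acid to the tRNAs that read its codons, and the ribosome depends on that pairing. Most amino acids have 1 enzyme for the cytosol and another, also encoded in the nucleus, for mitochondria. In animals several cytosolic enzymes are held with scaffold proteins in the multisynthetase complex, and many synthetase genes are known targets of ATF4, the transcription factor of the integrated stress response. Maturing erythroid cells make very large amounts of globin.

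The labels describe the cells as erythroid in tissue and as ES cells in cell type. Of 11 erythroid markers 9 were measured. Their highest intensity, that of the globin gene Hbb-bt, was 94562 units in the LMO2 siRNA channel and 45730 in the control channel. This probe was saturated, and before normalization it read 65235.5 and 65257.7 in these channels on replicate 1. The gap between its normalized values is therefore no fold. Of 6 pluripotent stem cell markers 3 passed the filter on dim probes, at no more than 96.9 units in the LMO2 siRNA channel and 100.4 in the control channel, while Nanog, Zfp42 and Sox2 did not pass. Lmo2 read 1735 and 1573 intensity units with LMO2 siRNA, against 6114 and 6361 with control siRNA, on replicates 1 and 2. It fell by 1.92 ± 0.14 on the log2 scale (SD, n = 2 arrays; limma adjusted p = 4.7e-21), so the targeted gene ran in the labelled direction. In the LMO2 siRNA channel 62.9% and 55.8% of spots exceeded background clearly, against 68.2% and 60.4% in the control channel. Among markers of other blood cells, Hdc, the histidine decarboxylase of mast cells, read 1.22 ± 0.08 and the platelet receptor gene Gp1ba 1.18 ± 0.05 as log2 ratios. By the rule used below, 2 of 4 measured mast cell markers and 1 of 5 megakaryocyte markers rose. So did 1 of 4 granulocyte and macrophage markers, while 1 megakaryocyte and 1 of 4 lymphocyte markers fell. The granulocyte gene that rose, Ltf, read 94 and 90 units with LMO2 siRNA, against 85 and 80 with control siRNA. Cpa3, a mast cell gene that rose, read 102 and 126 units, against 84 and 91. Both were dim, near the level of the pluripotent stem cell markers. The brightest mast cell marker reached 853 units with LMO2 siRNA and 382 with control siRNA, and the brightest megakaryocyte marker 1760 and 764. The part of such cells in the results was not tested, and in bulk RNA fewer cells of a type and less RNA per cell cannot be told apart.

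The 2 members on which the results turn are Lars2, the mitochondrial leucyl-tRNA synthetase, and Cars, the cytosolic cysteinyl-tRNA synthetase. The single Lars2 probe holds 60 bases, and its bases 26 to 49 are shown because the same letters stand in the RefSeq promoter window of the predicted gene Gm15564. As background, these letters also occur in the conserved part of the large-subunit ribosomal RNA. They were in 1 of 32851 promoter windows searched and in 1 probe of the array, that of Lars2.
Lars2 probe, bases 26 to 49: cggctcttcctatcattgtgaagc

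Cars has 3 probes, named A to C here in order of brightness, and each holds 60 bases. Probes A and B overlap by 30 bases, given in capitals, so they read 1 stretch of the transcript, while probe C reads another. Their sequences, as the array files give them, are shown because agreement between probes is the check on this gene.
Cars probe A: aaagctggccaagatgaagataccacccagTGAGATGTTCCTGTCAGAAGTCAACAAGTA
Cars probe B: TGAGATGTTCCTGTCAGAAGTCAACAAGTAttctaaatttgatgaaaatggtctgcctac
Cars probe C: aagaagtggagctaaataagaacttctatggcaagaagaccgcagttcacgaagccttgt

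Every ratio is LMO2 siRNA over control siRNA on the log2 scale, so that a positive value means a higher signal with LMO2 siRNA. Ratios were computed in 3 ways from the same spots. Loess ratios are background-corrected and normalized within each array, position-corrected ratios are first divided by the scanner's own correction for place on the array, and processed ratios come from the scanner software's final signals. A gene was called where limma's adjusted p over all genes was under 0.05. In the text a gene rose or fell only where it was called in 1 direction in all 3 sets and was not saturated.

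Among the 36 synthetases 1 rose, Lars2, and 1 fell, Cars. Over all genes 740 rose and 321 fell by the same rule, which is 7.52% of 14108 (5.25% up and 2.28% down), against 5.56% of the synthetases. The share among synthetases was thus no higher than that over all genes. After position correction the other 34 members had an absolute log2 ratio of at most 0.27. In the loess ratios 32 of 36 members had 1 sign on both arrays, as the plot of the members by array shows. The SD between the arrays had a median of 0.06 over the members and was highest, 0.19, for Rars.

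**Figure D1:**
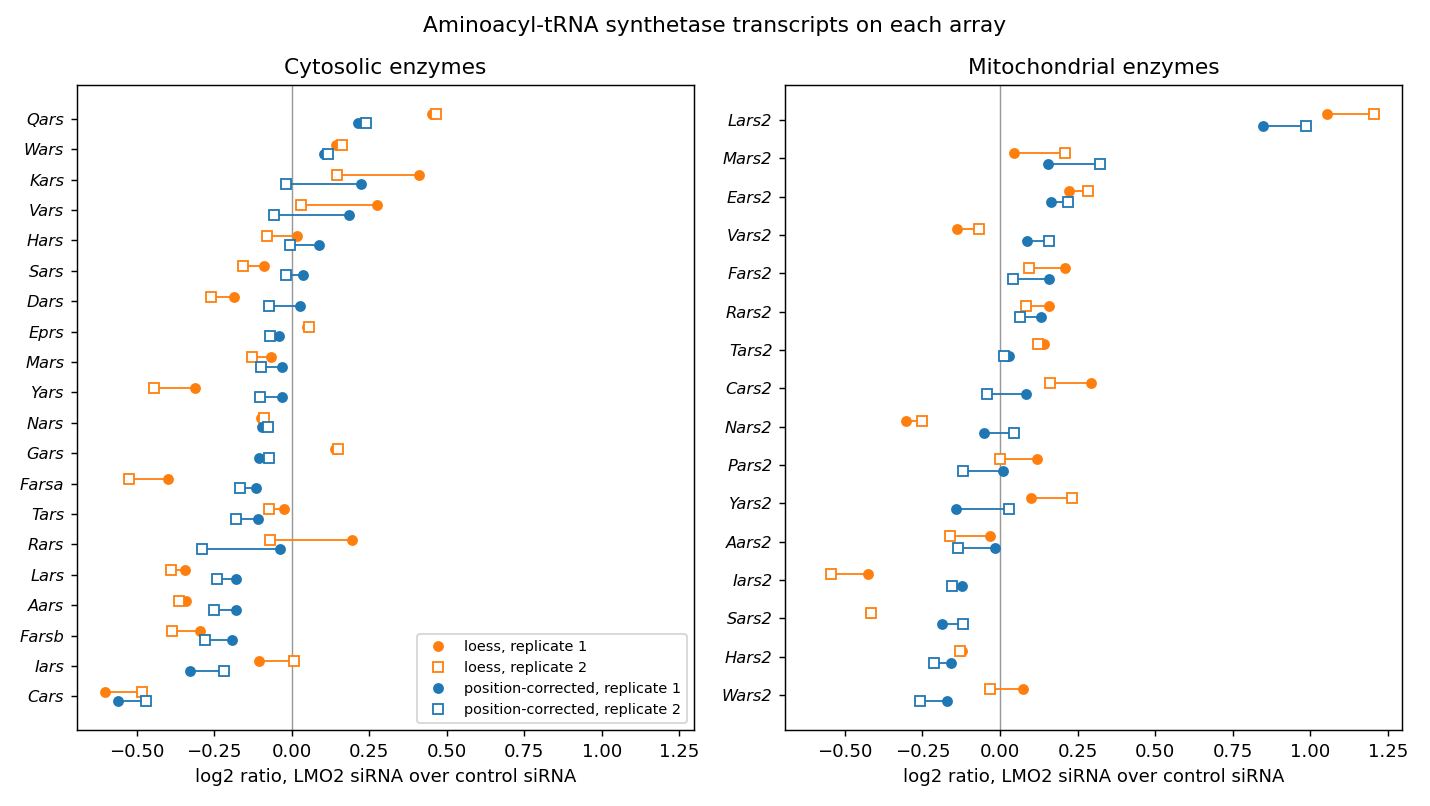
Log2 ratio of LMO2 siRNA over control siRNA for each synthetase gene (its brightest probe), with cytosolic enzymes on the left and mitochondrial enzymes on the right. Circles are replicate 1 and open squares replicate 2, in orange for loess ratios and in blue for position-corrected ratios. Lars2 lies near 1 and Cars near -0.5 in both sets, and most other genes move toward 0 after position correction.

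The Lars2 probe read 10440 and 11600 intensity units with LMO2 siRNA, against 5033 and 5029 with control siRNA. Both values with LMO2 siRNA lay above both values with control siRNA. The log2 ratio was 1.05 and 1.21 on the 2 arrays, a mean of 1.13 ± 0.11 or 2.19-fold (SD, n = 2; limma adjusted p = 7.0e-16). It was 0.92 with position correction (adjusted p = 5.2e-07) and 0.93 in processed signals (adjusted p = 0.027). Lars2 was the only synthetase past 1.5-fold in loess and in position-corrected ratios.

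Because Lars2 has 1 probe, and 24 of its bases match the window of Gm15564, the array's probes for ribosomal RNA were read beside it. These 4 probes, for Rn18s, Rn28s1 and their precursor, were chosen after the Lars2 value was seen. The brighter probe for Rn18s, the small-subunit ribosomal RNA, read 13438 and 13397 units with LMO2 siRNA, against 5618 and 5077 with control siRNA. Its log2 ratio was 1.33 ± 0.10, and 1.16 after position correction. An unnamed probe, which the array file describes as the ribosomal RNA gene with its internal spacers, read 3650 and 4366 units with LMO2 siRNA, against 1928 and 2017 with control siRNA. Its log2 ratio was 1.02 ± 0.14, and 0.86 after position correction.

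The other 2 ribosomal RNA probes were dim. The second Rn18s probe gave 0.36 ± 0.01 and the Rn28s1 probe, for the large-subunit RNA, 0.12 ± 0.14. Both bright ribosomal RNA probes thus had a ratio of the size seen for Lars2, on both arrays, and all 4 had a positive mean. What part of the Lars2 signal came from ribosomal RNA was not tested.

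**Figure D2:**
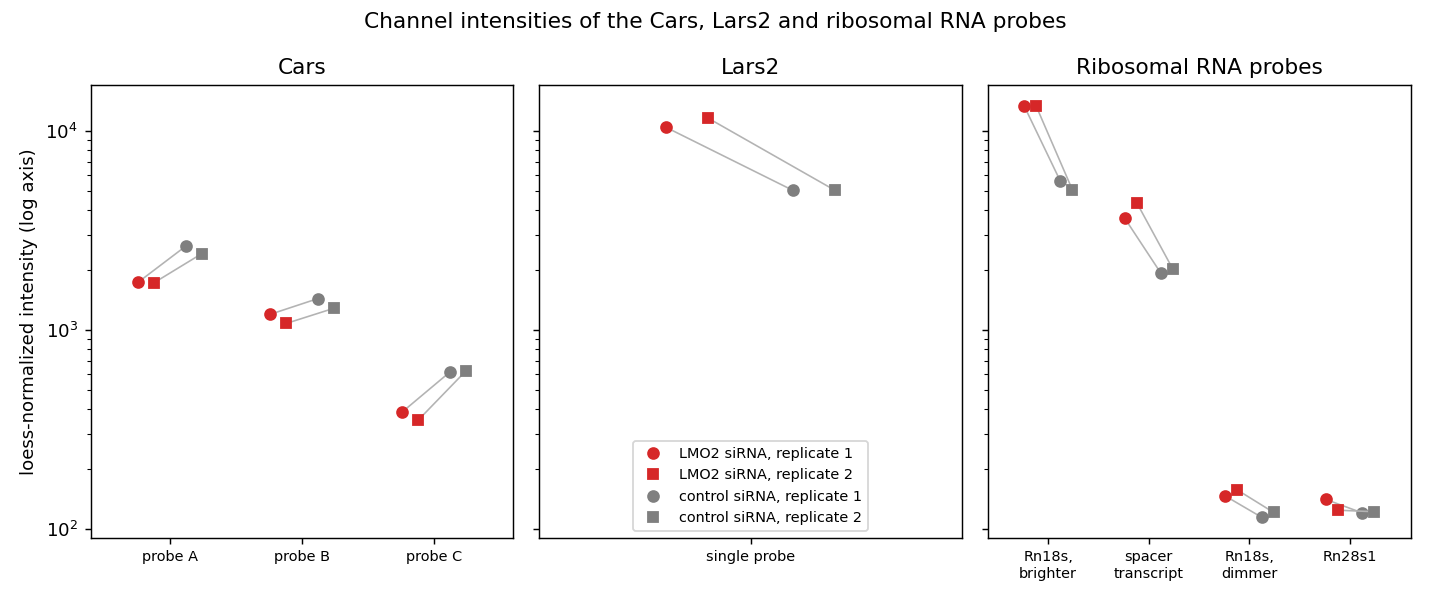
Loess-normalized intensity on a log axis for the 3 Cars probes, the Lars2 probe and the 4 ribosomal RNA probes, with LMO2 siRNA in red on the left of each pair and control siRNA in grey on the right. Circles are replicate 1, squares are replicate 2, and lines join the channels of 1 array. All 3 Cars probes are lower with LMO2 siRNA, and the Lars2 probe and the 2 bright ribosomal RNA probes are higher.

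All 3 Cars probes read lower with LMO2 siRNA, and only probe A was tested. Probe A read 1736 and 1725 units with LMO2 siRNA, against 2635 and 2413 with control siRNA. Probe B read 1198 and 1077 units with LMO2 siRNA, against 1436 and 1283 with control siRNA. Probe C read 387 and 352 units with LMO2 siRNA, against 614 and 621 with control siRNA. In each of the 3 both values with LMO2 siRNA lay under both values with control siRNA. The share of all genes with such a separation is not given here.

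For probe A, which stands for the gene in the test, the log2 ratio was -0.60 and -0.48 on the 2 arrays, a mean of -0.54 ± 0.08 or 1.46-fold lower (SD, n = 2; limma adjusted p = 3.4e-09). It was -0.51 with position correction (adjusted p = 3.5e-05) and -0.55 in processed signals (adjusted p = 0.041). Probes B and C gave -0.26 and -0.74 in loess ratios. The 3 probes came closer together after position correction, at -0.51, -0.50 and -0.37, and in processed signals, at -0.55, -0.54 and -0.51. Cars did not reach 1.5-fold. The brightest probe of its mitochondrial counterpart Cars2 read 0.23 ± 0.09 in loess ratios and 0.02 after position correction, and a second Cars2 probe read -0.21 and -0.08.

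With loess alone limma called 11 synthetases higher and 10 lower, 58.3% of them, against 24.6% of all genes called higher and 27.4% lower (51.9% in either direction). With position correction it called 4 higher and 8 lower, 33.3%, against 24.1% and 20.5% of all genes (44.6%). In processed signals it called 1 higher and 1 lower, 5.56%, against 6.65% and 3.23% (9.88%). Only 8 of the 21 loess calls were made in the same direction after position correction, and 4 members were called only then. For 27 of the 36 members the sign was the same in all 3 sets. With median centring in place of loess, the median of all genes was -0.41, against -0.02 with loess, and 418 genes were called higher and 9121 lower. Of the synthetases 1 was then called higher and 34 lower, with Lars2 at 0.42 and Cars at -1.17, so the directions given here are relative to the loess scale.

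The loess ratios of the synthetase probes increased with the row of the spot on the array. Over the 69 probes that passed the filter, the ratio correlated with the row at r = 0.69, against r = 0.46 over all 24735 probes kept. After position correction the values were 0.11 for the synthetase probes and -0.12 for all probes, and in processed signals 0.19 and 0.08. These are descriptions across probes of the same 2 arrays. In rows 1 to 67 of 532, the 9 synthetase probes had a median of -0.46, against -0.19 for all probes there, and in rows 467 to 532 the 8 synthetase probes had a median of 0.10, against 0.14. After position correction the synthetase probes had medians of -0.14 and 0.00 in the same bands, against 0.11 and -0.01 for all probes there.

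**Figure D3:**
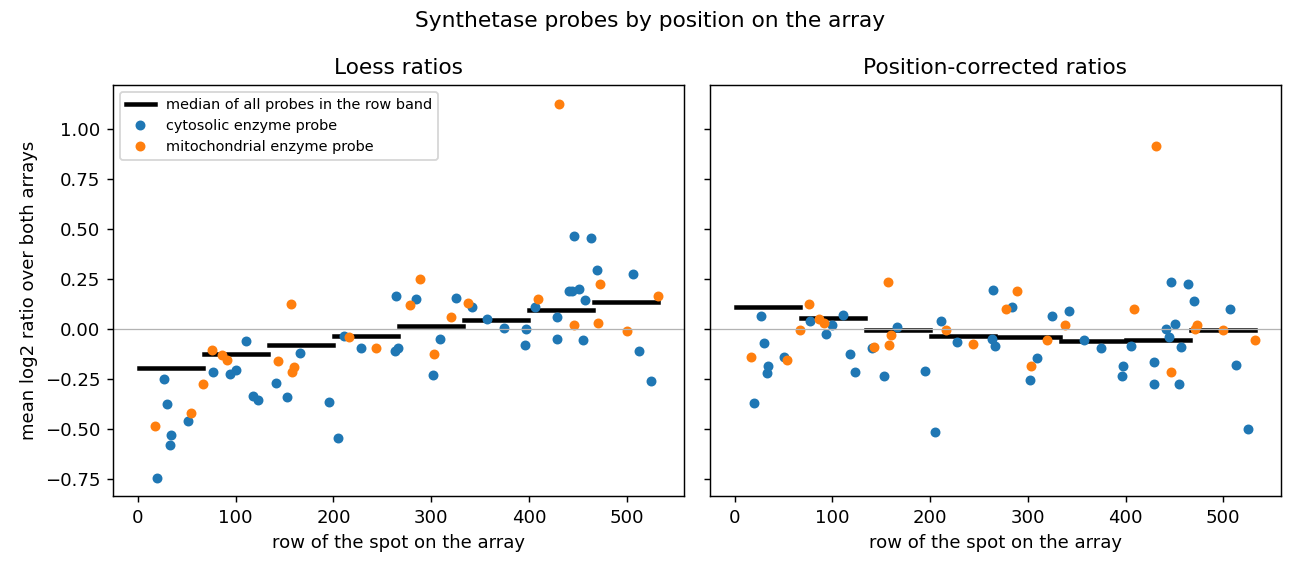
Mean log2 ratio over both arrays of each kept synthetase probe against the row of its spot, before position correction on the left and after it on the right. Blue points are probes of cytosolic enzymes, orange points those of mitochondrial enzymes, and black bars the median of all probes in each band of rows. The points climb with the row on the left and lie about level on the right, with Lars2 above the rest in both.

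Several large loess values lay at low rows. Iars2, the mitochondrial isoleucyl-tRNA synthetase, sits in row 17 and read 1675 and 1431 units with LMO2 siRNA, against 2248 and 2088 with control siRNA. Its log2 ratio was -0.48 ± 0.09, and -0.14 after position correction (limma adjusted p = 0.055). Yars, the cytosolic tyrosyl enzyme in row 30, read -0.38 ± 0.09, and -0.07 after correction. Nars2, the mitochondrial asparaginyl enzyme in row 67, read -0.28 ± 0.04, and 0.00 after correction.

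Of the 20 members with more than 1 kept probe, 12 had probes that differed in sign in loess ratios, 12 after position correction and 7 in processed signals. The median gap between the lowest and the highest probe of a gene was 0.31, 0.14 and 0.16 in these 3 sets. The widest loess gap was 0.83, for Lars, the cytosolic leucyl enzyme, whose brightest probe gave -0.37 and whose other probes gave 0.30 and 0.47. After position correction the same probes gave -0.21, 0.14 and 0.23, so the sign for Lars depended on the probe.

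The 8 enzymes of the multisynthetase complex are those for aspartate (Dars), glutamate and proline (Eprs), isoleucine (Iars), lysine (Kars), leucine (Lars), methionine (Mars), glutamine (Qars) and arginine (Rars). Loess called 2 of them higher and 2 lower, position correction 1 higher and 2 lower, and no member passed in all 3 sets. These are 50% and 37.5% of the 8, against 51.9% and 44.6% of all genes. Qars read 13732 and 12142 units with LMO2 siRNA, against 10031 and 8805 with control siRNA. Its log2 ratio was 0.46 ± 0.01, and 0.23 after position correction (limma adjusted p = 0.0058). In processed signals it was 0.24 with an adjusted p of 0.085. A second Qars probe gave 0.20 and the dimmest -0.23 after position correction.

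Iars, the cytosolic isoleucyl enzyme, was called in position-corrected ratios and not in loess ratios. It read 4648 and 3993 units with LMO2 siRNA, against 5003 and 3976 with control siRNA, a log2 ratio of -0.05 ± 0.08 in which the channels were about level. After position correction the ratio was -0.27 (limma adjusted p = 0.0027), and in processed signals -0.28 (adjusted p = 0.084). Its 3 probes then gave -0.27, -0.19 and -0.18, all negative. Kars, which also supplies the mitochondrial lysyl enzyme, read 0.28 ± 0.19 and 0.10 after correction, with the replicates at 0.22 and -0.02.

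The scaffold proteins that hold the complex together are encoded by Aimp1, Aimp2 and Eef1e1. Aimp1 read 0.17 ± 0.03 in loess ratios and -0.01 after position correction, and Aimp2 read 0.11 ± 0.11 and 0.09. Eef1e1 read -0.29 ± 0.05 and -0.20. Of these 3 genes none passed in all 3 sets.

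Among the 12 other cytosolic enzymes loess called 3 higher and 5 lower, and position correction 0 higher and 3 lower, namely Cars, Aars and Farsb. These are 66.7% and 25% of the 12, against 51.9% and 44.6% of all genes. Aars, the alanyl enzyme, read 18476 and 17056 units with LMO2 siRNA, against 23394 and 21960 with control siRNA. Its ratio was -0.35 ± 0.02, and -0.22 after position correction (limma adjusted p = 0.0086). In processed signals it was -0.19 with an adjusted p of 0.12. After position correction 3 of its 4 probes were negative, at -0.22, -0.25 and -0.27, and the dimmest gave 0.07.

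Farsa and Farsb encode the catalytic and the other subunit of the cytosolic phenylalanyl enzyme, and both read lower with LMO2 siRNA in all 3 sets without passing in all of them. Farsa read 3137 and 2788 units with LMO2 siRNA, against 4132 and 4008 with control siRNA, a ratio of -0.46 ± 0.09 and of -0.14 after position correction. Farsb read 946 and 856 units with LMO2 siRNA, against 1161 and 1118 with control siRNA, a ratio of -0.34 ± 0.06 and of -0.24 after correction (limma adjusted p = 0.0055). The mitochondrial phenylalanyl enzyme, encoded by Fars2 alone, read 0.15 ± 0.08 and 0.10. Gars, whose 1 gene supplies both the cytosolic and the mitochondrial glycyl enzyme, read 0.15 ± 0.01 and -0.09, so its sign turned with the correction.

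Of the 16 mitochondrial enzymes loess called 6 higher and 3 lower, and position correction 3 higher (Lars2, Mars2 and Ears2) and 3 lower (Hars2, Sars2 and Wars2). These are 56.2% and 37.5% of the 16, against 51.9% and 44.6% of all genes. Ears2, the glutamyl enzyme, read 350 and 356 units with LMO2 siRNA, against 300 and 292 with control siRNA, a ratio of 0.25 ± 0.04 and of 0.19 after position correction (limma adjusted p = 0.015). Mars2, the methionyl enzyme, read 330 and 310 units with LMO2 siRNA, against 320 and 268 with control siRNA, a ratio of 0.13 ± 0.12 and of 0.24 after correction (adjusted p = 0.0078). Sars2, the seryl enzyme, read 584 and 526 units with LMO2 siRNA, against 782 and 702 with control siRNA, a ratio of -0.42 and of -0.15 after correction (adjusted p = 0.041). In processed signals the adjusted p of these 3 was between 0.086 and 0.11.

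As groups, the cytosolic enzymes had a median log2 ratio of -0.07 and the mitochondrial ones of 0.09 in loess ratios, beside -0.02 for all genes. The difference of the medians, cytosolic minus mitochondrial, was -0.16, with -0.16 on replicate 1 and -0.13 on replicate 2. After position correction it was -0.09, with medians of -0.08 for cytosolic and 0.01 for mitochondrial enzymes, and -0.06 and -0.11 on the 2 arrays. In processed signals it was also -0.09. The sign was the same on both arrays in all 3 sets, but 2 arrays give an exact sign test no two-sided p below 0.5, so the difference was not tested. For scale, the middle 50% of all genes lay between -0.13 and 0.14 after position correction. The median spot brightness was 12.03 log2 units for cytosolic and 8.90 for mitochondrial enzyme probes, a property of the probes as well as of the transcripts.

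For 13 amino acids, 1 cytosolic and 1 mitochondrial gene serve that amino acid alone and were paired. Eprs, which serves glutamate and proline, and the 2 subunit genes Farsa and Farsb were left out of the pairs. The cytosolic enzyme had the lower ratio in 7 of the 13 pairs with loess, in 10 after position correction and in 10 in processed signals. The median difference within a pair was -0.06, -0.13 and -0.10. The leucine pair stood farthest apart, with Lars at -0.21 and Lars2 at 0.92 after position correction, followed by the cysteine pair, with Cars at -0.51 and Cars2 at 0.02. Histidine, serine and tryptophan ran the other way, with Wars at 0.11 against Wars2 at -0.21. The leucine pair depends on the probes, since the dimmer Lars probes gave 0.14 and 0.23 after position correction. Lars2 has a single probe, which shares bases with the window of Gm15564, and the bright ribosomal RNA probes had ratios of its size. The dim probes for Rn18s and for Rn28s1, the large-subunit RNA, read lower, at 0.42 and 0.26 after position correction. The part of ribosomal RNA in the Lars2 value was not tested.

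The complex enzymes exceeded the other cytosolic enzymes by 0.11 in the median loess ratio, with 0.00 against -0.11. After position correction the difference was 0.03, with -0.06 against -0.09, and in processed signals it was also 0.03. On single arrays it was 0.09 on both with loess and 0.06 and 0.01 after position correction. The difference was not tested.

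Genes that neighbour the synthetases in function were read from the same fit. Of 34 listed ATF4 targets outside the synthetases 28 were measured, among them the amino acid synthesis and transport genes. Loess called 5 higher and 12 lower, and position correction 3 higher and 16 lower. By the rule of all 3 sets 3 fell and none rose, with Asns left out as saturated. Of all genes 24.6% were called higher and 27.4% lower with loess, 24.1% higher and 20.5% lower with position correction, and 5.25% higher and 2.28% lower in all 3 sets. Their median was -0.02 with loess and -0.16 with position correction, beside -0.01 for all genes. No test of the list was made.

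The 3 ATF4 targets that fell were Atf5, Nupr1 and Gpt2, singled out after their values were seen. Atf5, a transcription factor, read 25993 and 22970 units with LMO2 siRNA, against 32647 and 31209 with control siRNA, a ratio of -0.39 ± 0.08 and of -0.56 after position correction. Nupr1, a stress-induced chromatin protein, read 1194 and 1211 units with LMO2 siRNA, against 1373 and 1377 with control siRNA, a ratio of -0.19 ± 0.01 and of -0.43 after correction. Gpt2, a mitochondrial alanine transaminase, was not well above background with LMO2 siRNA on either array, at 75.8 and 76.2 units, against 102.0 and 103.3 with control siRNA. By size in loess ratios the list was led by Trib3 (-0.61), a pseudokinase, Aldh18a1 (-0.61), which starts proline synthesis, Psph (-0.60), which ends serine synthesis, and the amino acid transporter gene Slc7a5 (0.56). After position correction these gave -0.45, -0.28, -0.17 and 0.36, and none of the 4 passed in processed signals.

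The list of kinases, initiation factors and phosphatase subunits around ATF4, with Atf4 itself, held 16 measured genes. Of its 17 listed names, Gcn1l1 and Gcn1 are the old and the current symbol of the same gene, so no gene went unmeasured. Loess called 3 higher and 9 lower, position correction 3 higher and 4 lower, and none passed in all 3 sets. These are 75% and 43.8% of the 16, against 51.9% and 44.6% of all genes. Eif2ak1, the heme-regulated kinase of erythroid cells, read -0.57 ± 0.15 and -0.40 after position correction in its brightest probe, while its 4 probes spread from -0.57 to 0.19 with loess. Eif2b5 read 0.41 ± 0.08, Ppp1r15b -0.37 ± 0.08 and Eif2ak2 -0.36 ± 0.09 in loess ratios, and 0.16, -0.12 and -0.17 after position correction. Ppp1r15b was not called after correction (limma adjusted p = 0.089). Atf4 itself read -0.30 in loess ratios, -0.16 after position correction and -0.19 in processed signals.

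On the mitochondrial side, 78 genes for mitochondrial ribosomal proteins were measured. Loess called 22 higher and 33 lower, position correction 16 higher and 12 lower, and 2 rose while none fell in all 3 sets. These are 70.5%, 35.9% and 2.56% of the 78, against 51.9%, 44.6% and 7.52% of all genes. The genes that rose were Mrps17, at 0.50 ± 0.03 and 0.46 after position correction, and Mrpl52, at 0.38 ± 0.16 and 0.56. Of 13 factors of mitochondrial tRNA amidation, formylation and translation, loess called 5 higher and 5 lower, position correction 5 higher and 2 lower (76.9% and 53.8%), and none passed in all 3 sets. Tufm, the mitochondrial elongation factor that delivers charged tRNA, read 0.52 ± 0.01 and 0.27, and Gatb, a subunit of the amidotransferase that makes glutaminyl-tRNA in mitochondria, read -0.51 ± 0.11 and -0.21.

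Genes that make and process tRNA were also read. Of 20 genes for RNA polymerase III and its factors, which transcribe tRNA, loess called 5 higher and 5 lower, position correction 1 higher and 5 lower, and 1 rose in all 3 sets. These are 50%, 30% and 5% of the 20, against 51.9%, 44.6% and 7.52% of all genes. The gene that rose was Polr3g, at 0.28 ± 0.01 and 0.44 after position correction. Of 19 genes for tRNA maturation, export and proofreading, loess called 5 higher and 7 lower, position correction 3 higher and 2 lower (63.2% and 26.3%), and none passed in all 3 sets. Trnt1, which adds the CCA end that synthetases charge, read -0.37 with loess and -0.22 after correction. Of the 5 measured cytosolic elongation factors 3 were saturated and get no fold, and Eef1d read -0.35 and -0.18.

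**Figure D4:**
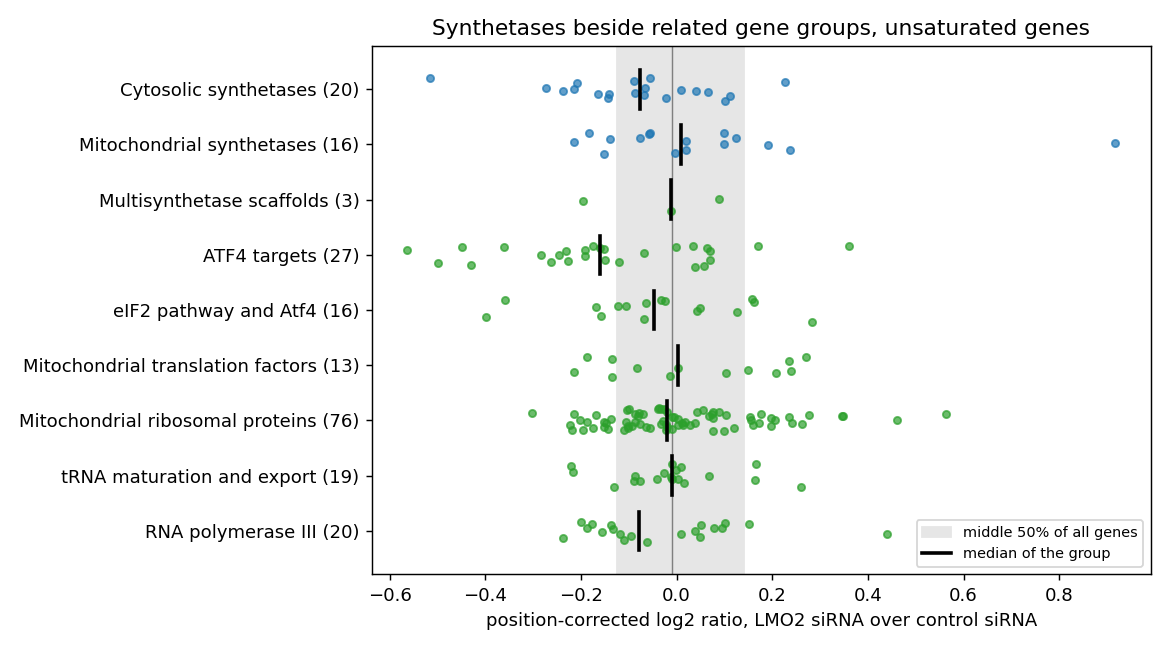
Position-corrected log2 ratio of LMO2 siRNA over control siRNA for each unsaturated gene of the synthetases (blue) and of related groups (green), with the number of genes in brackets. Black ticks are group medians and the grey band is the middle 50% of all 14108 genes, with a grey line at their median. The ATF4 targets have the lowest median, at -0.16, and the medians of both synthetase groups lie inside the band.

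Promoter windows of RefSeq (GRCm38.p6) were available for 27 members, 13 cytosolic and 14 mitochondrial. They were searched over the 250 bases before the start for TGATGNAA or its reverse complement TTNCATCA, the letters of an ATF4 composite element. The motif stood in 3.45% of all 32851 windows, in 3 of the 13 cytosolic enzymes and in 0 of the 14 mitochondrial ones. The 120 bases before the start are printed for the 3, with the motif in capitals, 5′ to 3′ on the gene's strand.
Aars, chr8:111033722-111033841, plus strand: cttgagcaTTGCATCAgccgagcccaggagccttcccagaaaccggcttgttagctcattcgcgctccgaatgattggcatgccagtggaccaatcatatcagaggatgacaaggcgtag
Gars, chr6:55037881-55038000, plus strand: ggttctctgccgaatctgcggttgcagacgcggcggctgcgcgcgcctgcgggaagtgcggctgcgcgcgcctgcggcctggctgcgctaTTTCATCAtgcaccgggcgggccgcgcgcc
Tars, chr15:11399659-11399778, minus strand: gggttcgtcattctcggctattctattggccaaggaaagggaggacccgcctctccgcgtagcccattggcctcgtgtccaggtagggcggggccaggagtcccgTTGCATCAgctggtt

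The first base of the match lies 112, 30 and 15 bases before the start in Aars, Gars and Tars. The windows of Gars and Tars border the annotated gene. That of Aars lies inside the gene's annotated span, chr8:111027778-111055569, so its start is not the outer end of the gene. Their position-corrected ratios were -0.22, -0.09 and -0.14, and Tars, the threonyl enzyme, had an adjusted p of 0.0503. No window was used for Cars. A match of these letters is a description, not a site.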

How the data were processed

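Scanning software was Agilent Feature Extraction 9.1.3.1 per the file headers, which place both arrays on 1 slide with 1 scan. The deposited files give intensity per spot and channel as mean signal, local background, position ratio and processed signal. The authors' series table holds log10 ratios, control over LMO2 siRNA per the labels' dyes, equal to the deposited files' within 0.005 log10 units, with an array median of 0. No source used here names a genome build for the probes.

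Values were computed in R 4.3.3 with limma 3.58.1, using normexp background correction with an offset of 50, then loess within each array, in which control spots had weight 0. Signs were then set so that log2 ratios run LMO2 siRNA over control siRNA. Probes entered if either channel was well above background on each array (24735 probes), and the brightest stands for its gene. Of 41174 probes, 24836 were named by accession (GRCm38.p6 gene table, names only), 9194 by the file's symbol and 7144 have none. The mean ratio was tested with limma (lmFit, eBayes), Benjamini-Hochberg adjusted over 14108 genes. With 1 residual and 27.7 prior degrees of freedom (2.2 in processed signals), p-values rest mostly on variance pooled over genes. Tested on simulated data for LMO2 siRNA over control siRNA with 14108 genes, the fit found 100% of the 100 genes with a 1.5-fold change and 100% of the 100 with a 2-fold change, and made 25 false calls. Drift common to the arrays and dye effects were left out of the simulation.

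The members, lists and tests, and the rule that joins the 3 sets of values, were chosen with earlier results of these data known. Named are each member, Lmo2 and up to 4 genes of the largest absolute log2 ratio per list. Other named genes were chosen after their values were seen. The number of arrays limits the precision of each value. Alternatives covered background, normalization, filters, flags, probe summary, variance prior, the series table, a 1.5-fold threshold and single arrays.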

Additional observations from a re-analysis of the deposited data

How the results depend on the processing

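With median centring in place of loess the median of all genes was -0.41, against -0.02 with loess, and 27 named genes with positive loess ratios became negative. Their log2 ratios were then Eprs -0.61, Gars -0.45, Kars -0.40, Qars -0.27, Rars -0.46, Vars -0.51, Wars -0.56, Cars2 -0.22, Ears2 -0.18, Fars2 -0.35, Mars2 -0.30, Pars2 -0.36, Rars2 -0.48, Tars2 -0.53, Wars2 -0.40, Yars2 -0.34, Aimp1 -0.59, Aimp2 -0.39, Slc7a5 -0.12, Eif2b5 -0.17, Tufm -0.17, Mrrf -0.34, Mrps17 -0.20, Mrpl55 -0.23, Rpp14 -0.12, Polr3a -0.18, Brf1 -0.33. With the mean over probes, Lars read 0.13, Tars2 -0.030 and Vars -0.026. With position correction, Aimp1 read -0.011, Gars -0.090, Wars2 -0.21 and Yars2 -0.057. Gars read -0.10 and Yars2 -0.066 both in processed signals and in the series' table.

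Of all genes, processed signals called 938 higher and 456 lower, median centring 418 and 9121, the values of the series' table gave 877 and 413, and a 1.5-fold threshold gave 534 and 251. Of the synthetases, position correction called 4 higher. Processed signals and the series' table each called 1 higher and 1 lower, median centring 1 and 34, and a 1.5-fold threshold 1 and 0. By the rule of 3 sets, median centring gave 297 genes higher, and a 1.5-fold threshold gave 363 higher and 119 lower. Lars2 stayed positive with median centring, at 0.42.

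The median difference of cytosolic minus mitochondrial enzymes was -0.086 with position correction, -0.091 with processed signals and with the series' table, -0.33 with median centring, -0.061 with the mean over probes, and between -0.16 and -0.13 on single arrays. For complex minus other cytosolic enzymes it was 0.028 with position correction, 0.030 with processed signals and with the series' table, 0.12 with offset 10, 0.18 with median centring, 0.21 with the mean over probes, and between 0.085 and 0.090 on single arrays. The causes were not tested. No other alternative reversed the sign of a member that was called. There is 1 group of 2 arrays, and each array pairs both arms. The test of the ratio within each array is thus already a paired analysis, and no further pairing was made.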
